A study of Mus musculus with 32 samples.

Results

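The miR-23/27/24 clusters are a pair of microRNA (miRNA) genes, each of which gives rise to a miR-23, a miR-27 and a miR-24. They were read here from the normalized miRNA table of mouse mesenteric arteries as every row whose base name was miR-23a, miR-23b, miR-27a, miR-27b or miR-24, with any copy number and either arm of the hairpin. This gave 11 of 870 rows. The a cluster held 5 of them (miR-23a-3p, miR-23a-5p, miR-27a-3p, miR-27a-5p and miR-24-2-5p), the b cluster 5 (miR-23b-3p, miR-23b-5p, miR-27b-3p, miR-27b-5p and miR-24-1-5p), and 1 row, miR-24-3p, belonged to both. A row was tested when 8 or more libraries held a signal of 1 or higher, which 9 of the 11 rows and 354 of all 870 did. miR-23a-5p and miR-23b-5p did not reach this level.

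The study asked how overexpression of endothelin-1, a vasoconstrictor peptide made by endothelial cells, changes small RNAs of resistance arteries. Male ieET-1 mice overexpress human endothelin-1 through a tamoxifen-inducible Cre recombinase under the Tie2 promoter, which is active in endothelial cells, and male ieCre controls carry the same inducible recombinase without the endothelin-1 transgene. Both genotypes received tamoxifen under the skin at 1 mg/kg/day on 5 days, starting at 10 to 12 weeks of age, and arteries were taken 16 days (short term) or 3 months (long term) after it. The table held 30 libraries, each under its own animal number. At either time 7 were ieCre and 8 were ieET-1. Long-term mice were also older when killed, so time after tamoxifen and age cannot be told apart. All mice received tamoxifen.

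A mature miRNA is cut from one arm of a hairpin, loaded into an Argonaute protein and guided to target mRNAs mainly by its seed, bases 2 to 8. The arm that is retained is called the guide and the other, mostly degraded, the passenger. In all members of these clusters the 3p arm is the usual guide. In endothelial cells miR-23 and miR-27 are known to promote vessel sprouting by repressing Sprouty2 and Sema6A, and miR-24 is known to repress Gata2 and Pak4.

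The sequences below, from RefSeq (GRCm38.p6), are shown because the resemblance between clusters decides which rows can be told apart. Capitals mark the seed. miR-23b-3p is named only. The guides are:
miR-27a-3p: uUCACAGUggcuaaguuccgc
miR-27b-3p: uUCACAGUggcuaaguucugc
miR-23a-3p: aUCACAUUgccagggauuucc
miR-24-3p: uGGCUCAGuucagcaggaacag
The passengers that were tested are:
miR-27a-5p: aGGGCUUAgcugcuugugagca
miR-27b-5p: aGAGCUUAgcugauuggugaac
miR-24-2-5p: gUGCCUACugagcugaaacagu
miR-24-1-5p: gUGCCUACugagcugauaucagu

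miR-27a-3p and miR-27b-3p share their seed and differ by 1 substitution, C19U, counted from the 5′ end of miR-27a-3p. Their passengers are less alike, with 8 substitutions over 22 bases, of which G3A lies in the seed. miR-24-3p is the same 22 bases from either hairpin, so its row is the sum of both clusters. The passengers miR-24-2-5p and miR-24-1-5p tell the copies apart, although their first 16 bases and their seed are identical. The Mir23b hairpin holds the first 18 bases of miR-23a-3p. Levels of miR-23a-3p against miR-23b-3p, and of miR-27a-3p against miR-27b-3p, therefore rest on 3′ bases, and the rule by which reads matching both rows were assigned was not stated in the sources.

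The a cluster lies on the plus strand at chr8:84208518-84208921 (GRCm38.p6), with 3 hairpins in 404 bases. Mir23a and Mir27a lie outside protein-coding genes, with the nearest, Zswim4, 2086 and 1920 bases away. Mir24-2 ends at 84208921 and only its end overlaps an exon of the lincRNA Gm26532, which starts at 84208920 in GENCODE M21. The b cluster lies on the plus strand at chr13:63300484-63301275, with 3 hairpins in 792 bases, inside the gene 2010111I01Rik. Mir23b lies in an intron of that gene, and Mir27b and Mir24-1 overlap exons of some of its annotated transcripts. All b hairpins are antisense to an intron of Fancc.

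Libraries held 1820166 to 35531345 recovered miRNA reads (median 13665715), and 4 libraries held fewer than 5000000. The libraries labelled ieCre short term 8 and ieET-1 short term 258 were nearly identical (Pearson correlation 0.999936, with 0.996284 the next highest among 435 pairs). Of 537 miRNAs compared, library 8 held more reads in 381, equal reads in 156 and fewer in 0. Changes with genotype or time that rest on short-term mice are given without both where that changes a call. Both are numbered below 1000, and comparisons between ranges of animal number were not refitted without them. The animal numbers fall into ranges that the labels do not explain. Below 1000 there were 8 short-term mice and at 8000 and above 7, and limma called 27.7% of 354 miRNAs between them. Of the long-term mice 9 were in the 8000s (3 ieCre and 6 ieET-1) and 6 in the 9000s (4 ieCre and 2 ieET-1), with 7.34% called. Range and genotype were thus partly mixed at long term, and values within the 9000s rest on 2 ieET-1 mice. Of the artery markers, the smooth muscle list had 5 of 5 rows above the filter in summed signals of 195660 to 397690 in ieCre short term, 211000 to 700250 in ieET-1 short term, 385960 to 2254700 in ieCre long term and 195810 to 1222900 in ieET-1 long term. The endothelium list, miR-126-3p and miR-126-5p, had 2 of 2 rows above it, and its summed signal was 5758.6 to 38673, 5939 to 22206, 5468.5 to 14458 and 8399.3 to 27158 in the same order. The arteries were bulk tissue, so fewer cells of a type and less RNA per cell cannot be told apart.

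Levels are given as the deposited normalized signal. miR-27b-3p, the guide of the b cluster, was the most abundant member, at 9872 to 21841 over the 30 libraries with a median of 13860, the 8th highest mean of the 870 rows by rank. miR-24-3p followed at 1484 to 5396 (median 3110), and miR-23b-3p at 605 to 1711 (median 1079). This order of the 3 guides held in 30 of 30 libraries.

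miR-27a-3p ran from 310 to 793 (median 459) and miR-23a-3p from 277 to 677 (median 437). These a-cluster guides lay below miR-23b-3p in every library and did not differ from each other beyond their spread: miR-23a-3p was the higher of them in 11 libraries and miR-27a-3p in 19. The spread between all libraries, as the coefficient of variation, was 20.7% for miR-27b-3p, 23.1% for miR-23a-3p, 24.3% for miR-27a-3p, 24.7% for miR-23b-3p and 29.8% for miR-24-3p.

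Passengers were low. miR-24-2-5p ran from 12.0 to 69.8 (median 32.4), miR-27b-5p from 8.39 to 40.5 (median 19.7), miR-24-1-5p from 0.315 to 7.16 (median 2.09) and miR-27a-5p from 0 to 5.99 (median 1.496). miR-24-2-5p exceeded miR-27b-5p in 21 libraries, and miR-24-1-5p exceeded miR-27a-5p in 21, so neither neighbouring pair had a fixed order, whereas miR-27b-5p exceeded miR-24-1-5p in 30 of 30. miR-23b-5p gave 32 reads over all libraries and none in 14 of them.

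miR-23a-5p gave 9 reads over all libraries and 0 in the 15 long-term libraries. Against 86913 reads of miR-23a-3p there, a count of 0 allows a share of up to 0.00345%, for counting error only. It was the least frequent passenger of the clusters.

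**Figure D1:**
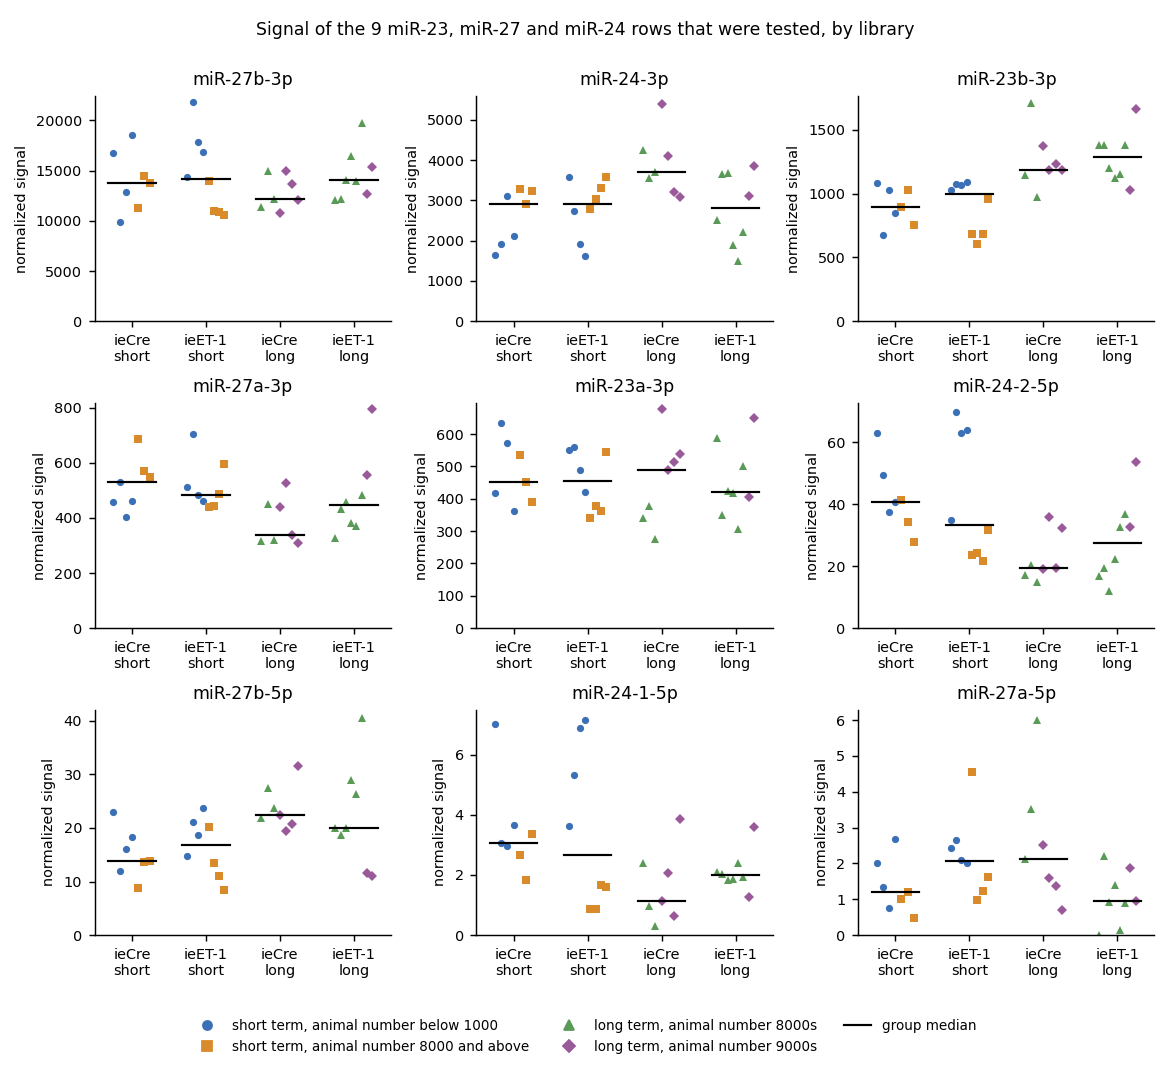
Normalized signal (vertical axis, linear, from 0) of each of the 9 tested rows in every library, by group, with 1 point per mouse, symbols for the range of animal number and a line at the group median. miR-27b-3p has group medians of 12135 to 14172, miR-23b-3p is higher in the long-term groups, and the short-term mice numbered below 1000 hold the highest values of miR-24-1-5p and miR-24-2-5p.

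The b cluster exceeded the a cluster in both guides that differ between them. miR-23b-3p was higher than miR-23a-3p in 30 of 30 libraries, with 1.07 to 4.55 reads for each read of miR-23a-3p (median 2.34). For miR-27 the gap was wider, with 16.4 to 42.9 reads of miR-27b-3p for each read of miR-27a-3p (median 31.4), so that miR-27a-3p made up 2.28% to 5.74% of the reads of both. In the passengers of miR-27 the b row was also higher in all 30 libraries, at a median of 10.3 reads per read of miR-27a-5p in the libraries with reads of it.

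The passengers of miR-24 went the other way. They do not show which cluster supplied more miR-24-3p, whose row is the sum of both. miR-24-2-5p, the passenger of the a cluster, exceeded miR-24-1-5p of the b cluster in 30 of 30 libraries and made up 86.7% to 97.9% of the reads of both (median 93.0%). The summed reads of all b rows were a median of 1.41% of a library (0.387% to 3.49%) and those of all a rows 0.0907% (0.0182% to 0.270%), with miR-24-3p in neither.

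**Figure D2:**
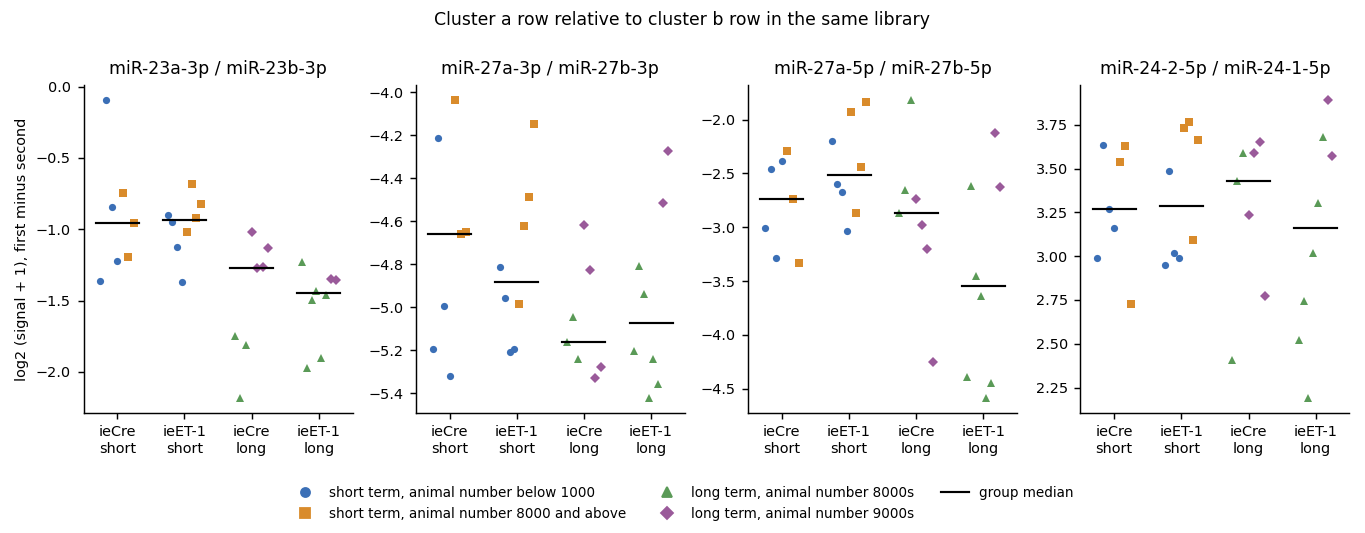
Within-library difference of log2(signal + 1) between the a-cluster row and its b-cluster counterpart (vertical axis), by group, with 1 point per mouse, symbols for the range of animal number and a line at the group median. miR-23 and miR-27 lie below 0 in every library and the miR-24 passengers above 0. The miR-23 difference has group medians of -0.95 and -0.93 at short term and -1.27 and -1.45 at long term.

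Guides exceeded passengers in 30 of 30 libraries in every hairpin. Over all libraries, miR-24-2-5p made up 1.56% of its reads and those of miR-24-3p (95% Clopper-Pearson interval 1.54% to 1.58%, counting error only), miR-27a-5p 0.350% (0.330% to 0.371%) and miR-24-1-5p 0.133% (0.127% to 0.138%) on the same measure. miR-27b-5p stood at 0.117% (0.115% to 0.119%). miR-23b-5p was at 0.00480% (0.00328% to 0.00678%) and miR-23a-5p at 0.00302% (0.00138% to 0.00574%). Since miR-24-3p holds reads from both hairpins, its 2 passenger shares are set against the same denominator and are not those of single hairpins.

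At 16 days, genotype made no difference to the clusters that the test could call. miR-27b-3p was at 9872 to 18494 in ieCre mice (median 13776) and at 10586 to 21841 in ieET-1 mice (median 14172). miR-24-3p was at 1648 to 3294 (median 2909) against 1611 to 3568 (median 2904). The groups overlapped in both guides.

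By limma with Benjamini-Hochberg adjustment over all 354 rows, 0 of 9 members were called at short term, against 0% of all rows, and 0 members had an unadjusted p below 0.05. The edgeR and DESeq2 tests on recovered reads also called 0 members, as did limma without the near-identical pair. Changes of the guides ran from 0.948-fold for miR-23a-3p (95% interval 0.719 to 1.25) to 1.08-fold for miR-24-3p (0.788 to 1.48). The interval of 8 of the 9 members lay within 2-fold in either direction. The other, the low passenger miR-27a-5p, was at 0.480 to 2.69 in ieCre mice (median 1.19) and at 0.984 to 4.56 in ieET-1 mice (median 2.06), with a fold of 1.36 (0.915 to 2.01; adjusted p = 0.990, limma). Folds here and below are on the log2(signal + 1) scale, which understates changes of low rows.

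At 3 months 0 of 9 members were called by limma, against 0% of all rows, and edgeR and DESeq2 also called 0 members. An unadjusted p below 0.05 was reached by 2 members, miR-24-3p and miR-27a-5p. miR-24-3p was at 3095 to 5396 in ieCre mice (median 3695) and at 1484 to 3860 in ieET-1 mice (median 2809). Of the 8 ieET-1 mice 7 lay below the ieCre median and 4 below the lowest ieCre mouse, and the groups overlapped. The fold was 0.693 (0.505 to 0.9502; log2 -0.53 ± 0.22, SE; adjusted p = 0.688, limma). The difference was -0.65 among mice numbered in the 8000s and -0.15 in the 9000s on the log2 scale, and -0.11 when signals were scaled to total reads.

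miR-27a-5p was at 0.700 to 5.99 in ieCre mice (median 2.13) and at 0 to 2.21 in ieET-1 mice (median 0.937), with 7 of 8 ieET-1 mice below the ieCre median and overlapping groups. Its fold was 0.594 (0.401 to 0.880; log2 -0.75 ± 0.28; adjusted p = 0.688, limma). These levels rest on 0 to 73 reads per ieET-1 library and 2 to 43 per ieCre library. Within the 8000s the difference was -1.37, and within the 9000s it was -0.05. The remaining members ran from 0.872-fold for miR-27b-5p to 1.28-fold for miR-24-1-5p, with adjusted p-values of 0.854 or higher by limma, and the intervals of 8 of the 9 members lay within 2-fold.

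The genotype effect at long term minus that at short term was called by limma for 0 of 9 members and 0% of all rows. An unadjusted p below 0.05 was reached by 1 member, miR-27a-5p, whose fold was 0.438 between the effects (0.251 to 0.764; adjusted p = 0.602, limma). The intervals of 4 of the 9 members lay within 2-fold in either direction, and those of the other 5 reached past it.

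The lowest p of any member comparison between genotypes at long term came from a ratio within the Mir27a hairpin. miR-27a-5p made up 0.225% to 1.84% of the reads of its 2 arms in long-term ieCre mice (median 0.570%) and 0% to 0.509% in long-term ieET-1 mice (median 0.194%). All 8 ieET-1 mice lay below the ieCre median and 5 below the lowest ieCre mouse on the log2 difference of the arms, while the groups overlapped. At short term the medians stood in the opposite order, 0.208% in ieCre and 0.403% in ieET-1 mice.

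The log2 difference of the Mir27a arms was -1.03 ± 0.31 (SE) between genotypes at long term, a ratio of 0.491 (0.318 to 0.759), with an adjusted p of 0.106 over 97 arm pairs by limma. No arm pair was called there (0% of 97), nor any member pair at short term or in the interaction (0% of 97 each, limma). An unadjusted p below 0.05 was reached by 2 of the 4 member arm pairs at long term, 1 in the interaction and 0 at short term. With animal number range in the model, the Mir27a pair was called at long term (-1.25, adjusted p = 0.00914, among 3.09% of arm pairs) and in the interaction (-1.74, adjusted p = 0.0152, among 1.03%), while 0 of 3 letter pairs of the members were, among 4.4% and 1.1% of all letter pairs. It was -1.55 within the 8000s (adjusted p = 0.0691) and -0.80 within the 9000s (adjusted p = 0.488), and it was called without ieCre long term 9491 or without ieET-1 long term 8135.

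The other arm pairs differed less between genotypes at long term. miR-24-1-5p relative to miR-24-3p stood at 1.85-fold in ieET-1 mice (1.01 to 3.39; adjusted p = 0.499, limma), miR-24-2-5p relative to miR-24-3p 1.70-fold (0.944 to 3.05; adjusted p = 0.539), and miR-27b-5p relative to miR-27b-3p stood at 0.774-fold (0.569 to 1.05; adjusted p = 0.561). None passed the threshold. Ratios of the a to the b cluster, tested over 91 letter pairs, were called for 0 of 3 member pairs and 0% of all pairs at each time and in the interaction by limma, with 0 of the member pairs at an unadjusted p below 0.05. For the guides the a to b ratio was 0.976-fold for miR-23 (0.762 to 1.25) and 1.07-fold for miR-27 (0.808 to 1.42) at long term.

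**Figure D3:**
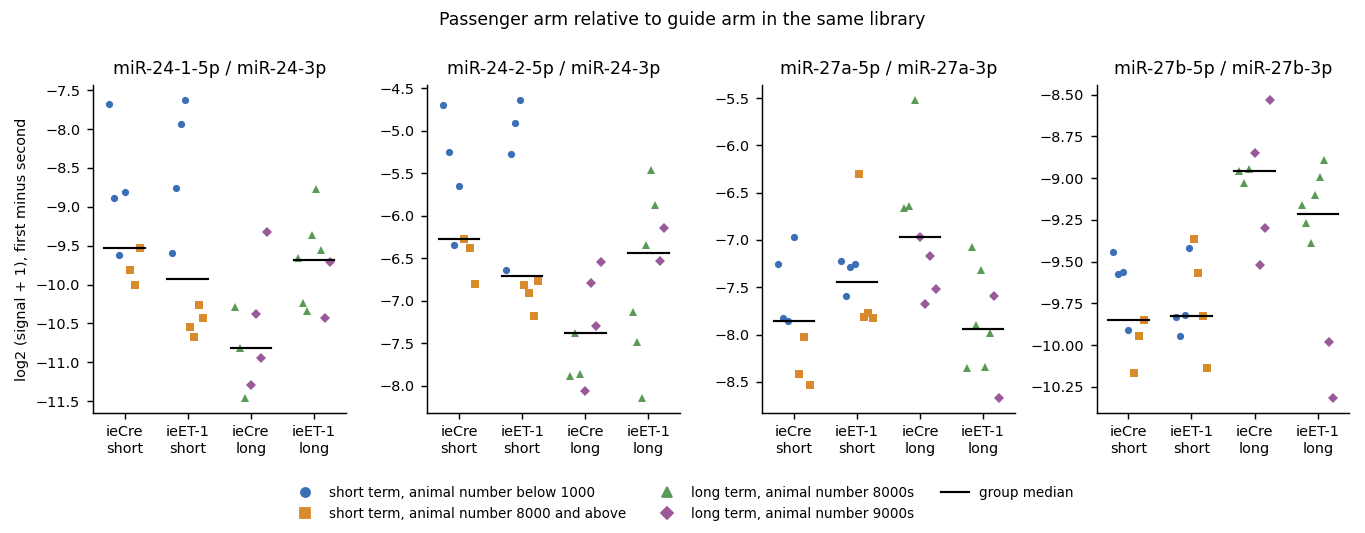
Within-library difference of log2(signal + 1) between the passenger and its guide (vertical axis), by group, with 1 point per mouse, symbols for the range of animal number and a line at the group median. In Mir27a the long-term ieET-1 mice all lie below the ieCre median of -6.97. In both miR-24 panels the short-term mice numbered below 1000 hold the highest values.

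miR-23b-3p rose between the times in ieET-1 mice on the deposited signal. It was at 605 to 1093 in short-term ieET-1 mice (median 994) and at 1028 to 1666 in long-term ieET-1 mice (median 1288). All 8 long-term mice lay above the short-term median and 7 above the highest short-term mouse. The fold was 1.45 (1.16 to 1.82; log2 0.54 ± 0.16; adjusted p = 0.0429, limma), and it was the 1 member called of 9, where 5.93% of all rows were called and 1.98% were called higher.

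In ieCre mice miR-23b-3p was at 676 to 1080 at short term (median 897) and at 974 to 1711 at long term (median 1183), with all 7 long-term mice above the short-term median and 6 above the highest short-term mouse. The fold was 1.39 (1.09 to 1.78) with an adjusted p of 0.0785 by limma. The change with time was not shown to differ between genotypes, since the interaction was 1.04-fold (0.747 to 1.46; adjusted p = 0.927, limma).

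The call in ieET-1 mice was close to the threshold. It was lost without the near-identical pair (adjusted p = 0.0593), without libraries under 5000000 reads (0.09498), with array weights (0.0628), and without any 1 of 13 libraries (adjusted p of 0.05002 to 0.0796 by limma), namely ieET-1 short term 255, 257, 8987, 8990 and 8991, ieET-1 long term 8134, 8135, 8136, 8150, 8151, 8152 and 9490, and ieCre long term 9487. On signals scaled to total reads, where the median of all rows fell by 0.90 on the log2 scale in ieCre mice and by 0.47 in ieET-1 mice, miR-23b-3p stood at 0.07 in ieET-1 mice and at -0.61 in ieCre mice. The summed smooth muscle markers had medians of 260180 and 279090 at short term and of 643170 and 656530 at long term in ieCre and ieET-1 mice. That sum rests almost wholly on miR-143-3p (mean signal 543670, against 1345 for the next highest row). Of the 5 rows, 4 had a positive change with time in ieCre mice (median log2 0.39, 1 called). In ieET-1 mice 2 did (median log2 -0.05, 0 called). Their part in the result was not tested. Nor was that of the other lists. The epithelium list had 9 of 18 rows above the filter. Its summed medians were 609 and 479 at short term and 1113 and 1020 at long term, with 1 long-term ieET-1 library at 11095. In the same order, the pancreas and liver list went from 42.7 and 50.8 to 159 and 214. The neural list went from 190 and 133 to 305 and 342. The erythroid list went from 42135 and 69570 to 91855 and 47908, with libraries from 5549 to 405700. Medians of the leukocyte list and of the striated and cardiac muscle list were lower at long term, and those of the adipose list higher.

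In ieCre mice 0 of 9 members were called between the times by limma on the deposited signal, against 7.91% of all rows. An unadjusted p below 0.05 was reached by 6 of them, and edgeR and DESeq2 on recovered reads each called 2, among 8.47% and 12.4% of all rows. miR-24-3p was at 1648 to 3294 at short term (median 2909) and at 3095 to 5396 at long term (median 3695), 1.53-fold (1.10 to 2.12; adjusted p = 0.0834, limma). All 7 long-term mice lay above the short-term median and 5 above the highest short-term mouse.

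Its passengers stood lower at long term. miR-24-2-5p was at 27.8 to 62.9 at short term (median 40.8) and at 14.8 to 36.0 at long term (median 19.4), 0.543-fold (0.355 to 0.831; adjusted p = 0.0664, limma). miR-24-1-5p was at 1.83 to 7.03 (median 3.05) and at 0.315 to 3.85 (median 1.15), 0.558-fold (0.353 to 0.881; adjusted p = 0.0866). For miR-24-2-5p the short-term median exceeded all 7 long-term values. Scaled to total reads, 5 members were called lower in ieCre mice, where 60.8% of all rows were called.

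**Figure D4:**
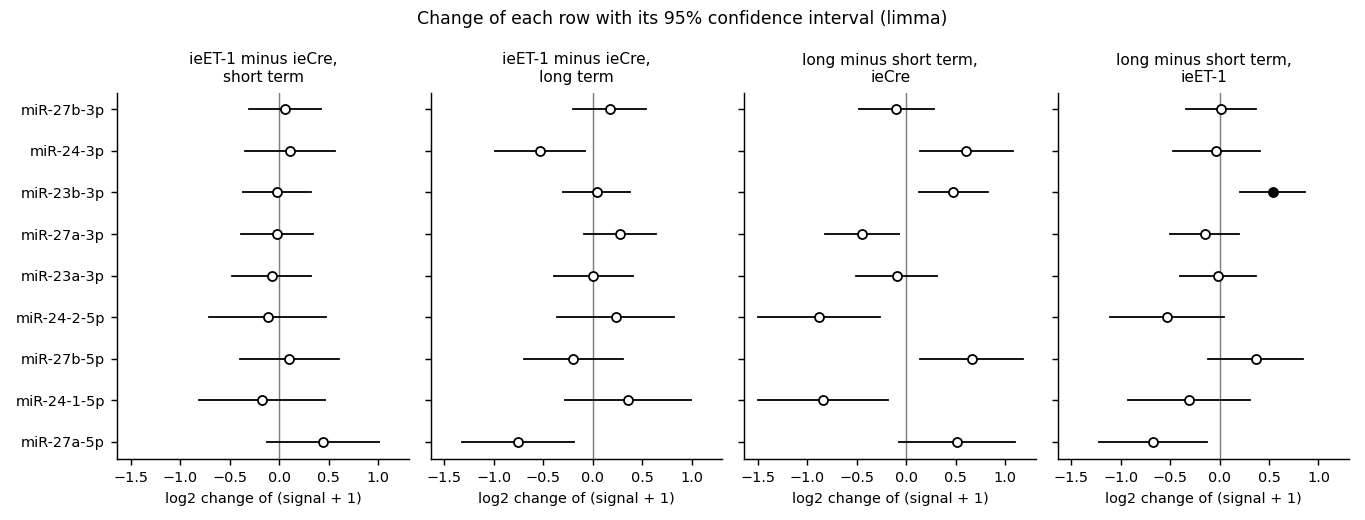
Change in log2(signal + 1) (horizontal axis) of the 9 tested rows with 95% confidence intervals from limma, for genotype at each time and for time in each genotype. A filled point is a row called at an adjusted p below 0.05, which is miR-23b-3p in ieET-1 mice alone. Intervals are widest for the low passengers.

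Arm ratios moved with time in ieCre mice. All 4 member arm pairs were called, where limma called 18.6% of 97 arm pairs, and they went both ways. Both miR-24 pairs hold the same miR-24-3p row, so their calls are not independent. miR-24-2-5p made up 0.857% to 3.68% of its reads and those of miR-24-3p at short term (median 1.24%) and 0.355% to 1.03% at long term (median 0.570%), a change in the ratio to 0.356-fold (0.194 to 0.652; adjusted p = 0.0238, limma). miR-24-1-5p relative to miR-24-3p fell to 0.366-fold (0.195 to 0.684, adjusted p = 0.0247), with 6 of 7 long-term mice below the lowest short-term mouse. miR-24-1-5p rested on 7 to 394 reads per short-term ieCre library and 1 to 43 per long-term one. The size of its change depended on the pseudocount, with log2 -1.45 as reported, -0.97 with a pseudocount of 5 and -1.89 on reads plus 0.5.

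Both miR-27 passengers rose relative to their guides. miR-27b-5p made up 0.0781% to 0.137% of the reads of its arms at short term (median 0.101%) and 0.130% to 0.261% at long term (median 0.192%), 1.69-fold (1.23 to 2.33; adjusted p = 0.0238, limma), with 6 of 7 long-term mice above the highest short-term mouse. miR-27a-5p relative to miR-27a-3p rose 1.95-fold (1.24 to 3.05; adjusted p = 0.0297), with 4 of 7 long-term mice above the highest short-term mouse. In all 4 pairs the groups overlapped. The same ratios in ieET-1 mice were called in 0 of 4 pairs and 0% of 97 (0 at an unadjusted p below 0.05), at 0.824-fold, 0.707-fold, 1.27-fold and 0.697-fold for miR-24-1-5p, miR-24-2-5p, miR-27b-5p and miR-27a-5p, and the interaction was not called for any of them.

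Leaving out single mice ended these calls, in part with little change in size. Without ieCre long term 8149 the log2 change in the ratio went from -1.49 to -1.41 for miR-24-2-5p. That of miR-27b-5p went from 0.760 to 0.747. Without ieCre long term 8149 none of the 5 member pairs called between the times in ieCre mice passed (adjusted p of 0.0508 to 0.113), and the ratio of miR-27a-5p also lost its call without ieCre short term 8754, 9955 or 9957 or ieCre long term 8088, 8089 or 9485, on reads plus 0.5 in place of the signal plus 1 (adjusted p = 0.0914), and with array weights (0.0804). That of miR-27b-5p was lost without libraries under 5000000 reads (0.0508). In the fit of only the groups compared, neither miR-27b-5p (adjusted p = 0.0609, limma) nor miR-27a-5p (0.0731) kept its call, while both miR-24 ratios did. The ratio of miR-24-1-5p lost its call without ieCre short term 8, of the near-identical pair, or ieCre long term 9485. Without both libraries of that pair it was called (log2 -1.20, adjusted p = 0.0423, limma), as were the other arm ratios. With short-term mice numbered below 1000 left out, the miR-24 ratios were not called (log2 -0.92 and -0.86 for miR-24-2-5p and miR-24-1-5p; adjusted p = 0.125 and 0.115), while those of miR-27b-5p (0.97, adjusted p = 0.0478) and miR-27a-5p (1.45, adjusted p = 0.0307) were, among 12.6% of arm pairs.

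The a to b ratio of miR-23 stood lower at long term in both genotypes, and the change was called in ieCre mice only. miR-23a-3p made up a median of 34.0% of the reads of both miR-23 guides in short-term ieCre mice and 29.2% at long term, with medians of 34.4% and 26.8% in ieET-1 mice. The ratio changed to 0.672-fold in ieCre mice (0.520 to 0.868; adjusted p = 0.0362, limma), the 1 of 3 member letter pairs called, where 12.1% of 91 were. In ieET-1 mice it stood at 0.682-fold (0.537 to 0.866; adjusted p = 0.0914), with the short-term median above all 8 long-term values, where 1.1% of letter pairs and 0 member pairs were called, 2 of them at an unadjusted p below 0.05.

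miR-23a-3p alone stood at 0.935-fold in ieCre mice (0.703 to 1.24) and 0.990-fold in ieET-1 mice (0.758 to 1.29). The ieCre call for the miR-23 ratio was lost without ieCre short term 10, 931 or 8754 or ieCre long term 8088, 8089 or 8149 (adjusted p of 0.0552 to 0.0923). It was also lost without a filter (0.0702), in the fit of only the groups compared (0.106), and without the mice numbered below 1000 (-0.53, adjusted p = 0.104). For miR-27 the a to b ratio of the guides stood at 0.786-fold in ieCre mice (0.587 to 1.05; adjusted p = 0.266) and 0.891-fold in ieET-1 mice (0.677 to 1.17; adjusted p = 0.680). That of the miR-27 passengers stood at 0.904-fold (0.547 to 1.49; adjusted p = 0.781) and 0.487-fold (0.304 to 0.779; adjusted p = 0.0914), all by limma.

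Like many other rows of the table, the miR-24 passengers differed between the ranges of animal number at short term. Their medians were lower at 8000 and above in both genotypes. miR-24-2-5p was at 34.8 to 69.8 in the 8 mice numbered below 1000 (median 56.1) and at 21.8 to 41.5 in the 7 at 8000 and above (median 27.8), a log2 difference of -0.81 ± 0.20 (SE; adjusted p = 0.00631, limma). miR-24-1-5p was at 2.98 to 7.16 (median 4.50) and at 0.853 to 3.36 (median 1.68), a difference of -1.07 ± 0.24 (adjusted p = 0.00306). These were the 2 of 9 members called, where 27.7% of all rows were. The highest value of miR-24-1-5p was 7.03 in ieCre mice and 7.16 in ieET-1 mice, in libraries 8 and 258 of the near-identical pair. The comparisons between ranges were not refitted without that pair.

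miR-24-3p stood in the opposite order (0.49 ± 0.19; adjusted p = 0.0673), so the ratios of miR-24-1-5p and miR-24-2-5p to it differed by -1.56 and -1.30 between the ranges (adjusted p = 0.00106 and 0.00227, limma, among 34% of arm pairs). The Mir27a and Mir27b arm ratios were not called between these ranges, at -0.44 and -0.15. Of the a to b ratios, tested here with the miR-24 copies, that of the miR-27 guides was higher at 8000 and above (0.48 ± 0.18; adjusted p = 0.0485, limma, among 35.8% of 95 pairs). Among long-term mice the a to b ratio of the miR-23 guides was higher in the 9000s than in the 8000s (0.50 ± 0.15; adjusted p = 0.0273, among 20% of 95 pairs), a difference close in size to its change with time. With animal number range in the model that change was -0.62 in ieCre mice (adjusted p = 0.00487, among 33% of letter pairs) and -0.43 in ieET-1 mice (adjusted p = 0.163). What the ranges stand for is not given in the labels.

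Outside the clusters, the miRNAs whose log2 signal was most like that of a member over the 30 libraries are named here by Pearson correlation, as a description over libraries that share scaling and depth. For miR-27b-3p they were miR-671-3p (0.727), miR-181b-5p (0.720) and miR-132-3p (0.687), and for miR-24-3p miR-10a-5p (0.897), miR-99b-5p (0.893) and miR-100-5p (0.877). Those of miR-23b-3p were lower, at 0.554 for miR-30c-5p, 0.536 for miR-139-5p and 0.472 for miR-215-5p, which fell to 0.153 once group means were subtracted.

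miR-23a-3p was most like miR-195a-5p (0.842), miR-30c-5p (0.724) and miR-361-5p (0.718), and miR-27a-3p most like miR-22-3p (0.807), miR-322-5p (0.775) and miR-15a-5p (0.773). Among the passengers, miR-24-2-5p and miR-24-1-5p were near the same miRNAs, miR-434-3p (0.803 and 0.710) and miR-872-3p (0.733 and 0.748), and had 0.775 with each other, which put each at the second rank for the other. No other member reached the values of the 3 miRNAs nearest to a member. Guides of 1 cluster had 0.302 (miR-23b-3p with miR-27b-3p) and 0.380 (miR-23a-3p with miR-27a-3p) on the normalized signal. On log2 reads scaled to the library total these were 0.859 and 0.911, beside 0.904 between the miR-24 passengers. miR-24-3p had -0.517 with miR-24-2-5p and -0.499 with miR-24-1-5p on the normalized signal, and 0.621 and 0.492 on log2 reads scaled to the library total.

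Other miRNAs known to act in endothelial growth or the state of smooth muscle were set beside the clusters, among them miR-126, miR-143, miR-221 and miR-29b. Of 44 rows 30 were tested, and 0 were called between genotypes at either time by limma, with median log2 changes of -0.04 at short term and 0.07 at long term, against -0.04 and -0.01 over all 354 rows. Between the times 1 was called higher in each genotype and 0 lower, with medians of -0.10 in ieCre and -0.03 in ieET-1 mice against -0.13 and -0.09 over all rows. It was miR-143-3p in ieCre mice (1.43 on the log2 scale; adjusted p = 0.0167), a miRNA abundant in smooth muscle, and miR-29b-3p in ieET-1 mice (0.81; adjusted p = 0.0481), which represses collagen genes and is named here because it was the single call.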

How the data were processed

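Small RNA libraries were made from 1 µg RNA of dissected arteries with the TruSeq kit, per the labels' protocols. The deposited values are a normalized signal that the authors made for each miRNA in each library. Tools named, without their role, in the submitters' processing notes are edgeR 3.6.8, R 3.2.3, STAR 2.3.1, FastQC and bcl2fastq 1.8.4. The genome build (not given in the sources used here) was not inferred. All values (100%, relative tolerance 0.001) were whole multiples of what 1 read is worth in their library, so reads were recovered. On these, edgeR 4.0.16 (quasi-likelihood) called 0, 0, 0, 30 and 38 miRNAs in the short-term genotype, long-term genotype, interaction, ieCre time and ieET-1 time comparisons.

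Rows with a signal of 1 or more in 8 or more libraries were tested by limma-trend (version 3.58.1 in R 4.3.3) on log2(signal + 1), a pseudocount of 1, in 1 fit of 4 group means, two-sided, with a Benjamini-Hochberg adjusted p below 0.05 as the threshold. Differences between the rows of a pair within a library were fitted without a trend. Replicates are taken to be separate mice because their numbers differ, and both libraries of the near-identical pair were kept in the main fits. The p-values measure the spread between these libraries. The labels list 2 more ieCre mice (1 per time), not analysed here. The members and lists were chosen with earlier results of these data known. Named beside the members were the 3 rows, members left out, most correlated with each. Marker names with the letter a and no row (miR-126a, miR-142a, miR-486a) were matched without it. Alternatives were other pseudocounts, filters and scalings, robust and weighted fits, DESeq2 1.42.0, animal number range in the model, and leaving out libraries. Those within ranges, without animal numbers below 1000, with reads plus 0.5 and with letter and copy pairs together were chosen after seeing the data. Python 3.11.15 was used for figures and descriptions.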

Additional observations from a re-analysis of the deposited data

Results flagged for a closer look

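In 1 of 68 groups of libraries examined, 1 library lay far from the rest of its group. In short-term ieET-1 mouse 8987 the log2 difference between miR-27a-5p and miR-27a-3p was -6.305, and the nearest other of the 8 mice was at -7.22, a gap of 0.602 of the whole range of the group, above the critical value of 0.526. Chance alone would mark about 1 in 20 groups.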

How the results depend on the processing

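No result that was called as reported changed sign. Of those called only under an alternative, 6 changes with time had the other sign, uncalled, under another. In ieCre mice these were miR-23b-3p, miR-24-3p and miR-27b-5p with total scaling (-0.61, -0.47 and -0.36), miR-23a-3p and miR-27b-3p with edgeR (0.03 and 0.0053), and miR-23a-3p also without ieCre long term 8149 (0.02). In ieET-1 mice it was miR-24-2-5p without animal numbers below 1000 (0.03). Of 3639 further values of single members and pairs, 39 passed the threshold that the reported value missed and 49 lost it. No paired analysis was possible because the animal numbers do not repeat between groups. Members called in ieCre mice between the times (0 as reported) numbered 2 with median-ratio scaling, quantile scaling, edgeR or DESeq2, 5 with total scaling or animal number range in the model, and 1 in the fit of only the groups compared or without libraries under 5000000 reads. In ieET-1 mice (1 as reported) they numbered 0 with TMM, total or quantile scaling, in the fit of only the groups compared, and without the near-identical pair, libraries under 5000000 reads or animal numbers below 1000, and 2 with array weights (miR-24-2-5p and miR-27a-5p, lower, with miR-23b-3p no longer called). Member pairs called in ieCre mice (5 as reported) numbered 3 with a filter at 10, and 2 in the fit of only the groups compared or without animal numbers below 1000. In ieET-1 mice (0 as reported) they numbered 1 without a filter or in the fit of only the groups compared and 2 with array weights. Between genotypes 1 pair was called at long term and 1 in the interaction with animal number range in the model (0 as reported). Leaving out single libraries gave 0 to 2 members in ieCre mice and 0 to 1 in ieET-1 mice over time, 0 to 5 pairs in ieCre and 0 to 2 in ieET-1 mice, and 0 to 1 pairs between genotypes at long term. The cause of these shifts was not tested. Read depth limits the low passengers most, since miR-27a-5p rests on 0 to 143 reads per library and miR-24-1-5p on 1 to 394.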
